A study of Mus musculus with 9 samples.

Results

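The 10 genes described here handle salt, water and bicarbonate in the colon. They are the carbonic anhydrases Car1 and Car4, the apical exchangers Slc9a3 and Slc26a3, the water channel Aqp8, the epithelial sodium channel subunits Scnn1a, Scnn1b and Scnn1g, the steroid enzyme Hsd11b2 and the potassium channel Kcnn4. They were chosen by gene symbol from a table of 45777 genes, and all 10 were among the 18414 genes with enough reads to be tested. In the comparisons between treatment groups 0 of the 10 passed the test. In scaled read counts, Car4 was nevertheless lower in every library from casted mice than in every control library. Of all genes tested, 4.59% were lower without overlap in IM than in CT, and 11.3% in IM-HYA than in CT. In the deposited TPM values, which are scaled to a common sum instead, the Car4 levels of the controls overlapped both other groups. The overlap with IM rested on CT 2, the lowest library, in which pancreatic marker genes took 33.7% of the counts. The levels of the 10 instead differed widely inside groups. Slc26a3, Scnn1g and Car1 were higher, and Kcnn4 was lower, in libraries with more RNA of the Hox genes that mark the distal end of the gut, as were 17.5% of all genes in either direction, but these 4 calls were lost in several alternative fits.

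In the colon, surface epithelial cells take up sodium and chloride through an apical exchanger that trades sodium for protons and another that trades chloride for bicarbonate. Carbonic anhydrases supply both with protons and bicarbonate by hydrating carbon dioxide. In the distal colon, aldosterone drives sodium uptake through the epithelial sodium channel (ENaC), and potassium channels and the sodium pump sustain the electrical gradient.

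The samples were 9 bulk RNA sequencing libraries of colon tissue from wild type mice, 3 in each of 3 groups. The CT group ate a normal diet and served as the control. The IM group ate the normal diet and had the hindlimbs immobilized in a cast for 10 days. The IM-HYA group had the same 10 days of casting and ate a diet containing HYA, an abbreviation that the labels do not spell out. Every HYA library also came from casted mice, so the diet was compared only within casting, and the comparison with CT joins diet and cast. The labels do not state the age or sex of the mice, the part of the colon sampled or whether each library came from a separate animal. The p-values therefore reflect only how far these libraries differ, and that spread may be technical. Libraries are named below by group and replicate number, and values listed for a group are in the order of replicates 1, 2 and 3.

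Library totals ran from 19638401 to 42917198 counts. The epithelium marker list (10 of 10 genes tested) summed to between 7860 and 15466 CPM (read counts scaled to a common library size) per library, so epithelial RNA was present in all 9, with the lowest sum in IM 3. Pancreatic acinar marker genes took 33.7% of the counts in CT 2 and at most 0.583% in every other library. IM 3 held the highest summed CPM of T cell markers (165, against 7.96 to 19.8 elsewhere), adipocyte markers (3165, against 75.5 to 602) and erythrocyte markers (2834, against 77.3 to 462). Alternative fits took the mean log2 CPM of the epithelium markers (the epithelium score) as a covariate or left out the pancreatic marker genes. The part of the T cell, adipocyte and erythrocyte markers in the results below was not tested. Some results are also given without IM 3 or without both CT 2 and IM 3. In bulk tissue, fewer cells of a type and less RNA per cell cannot be told apart.

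The labels give no position along the colon, so the distal Hox genes stand in for it here. Hox genes keep a pattern along the body axis in the adult gut, with the last members of each cluster used most towards the anus. The score averaged the log2 CPM of 7 such genes and was scaled from 0 in the lowest library to 1 in the highest, and contains none of the transport genes. In the CT libraries it was 0.957, 0.714 and 0.508. In the IM libraries it was 1, 0.314 and 0. In the IM-HYA libraries it was 0.980, 0.467 and 0.998. Scores therefore differed widely within each group, but not over the same range. The lowest in CT was 0.508, while IM and IM-HYA held libraries below it, and the lowest scores were both in IM. Hoxb13, the most abundant of the 7, reached 411, 336 and 210 CPM in CT, 324, 39.6 and 0.140 in IM, and 415, 163 and 441 in IM-HYA. Hoxa13 and Hoxd13 had 0 reads in IM 3. Hoxd10, Hoxd11, Hoxd12 and Hoxd13 were each highest in CT 1, IM 1, IM-HYA 1 and IM-HYA 3. The 7 genes did not all follow the score. Hoxa11 was highest in IM 2 (13.7 CPM), and Hoxa13 was lower in CT 1 (0.754) than in IM 2 (1.27). Hoxd10 and Hoxd11 in IM 3 (4.46 and 6.79 CPM) were above CT 3 (0.970 and 1.43), IM 2 (0.808 and 2.02) and IM-HYA 2 (0.937 and 1.18). The eighth listed gene, Hoxc13, had 0 reads in every library and was left out.

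The promoters of the 3 transport genes whose levels spread most widely over the libraries are shown here, since their levels differed by 23.9-fold to 64.8-fold between the highest and the lowest library. Each is the 250 bases before the transcription start in the RefSeq annotation of GRCm38.p6, on the plus strand, written 5′ to 3′, with capitals for a match to TATAAA. The windows are chr7:123462044-123462293 for Aqp8, chr7:121734229-121734478 for Scnn1g and chr12:31437969-31438218 for Slc26a3. For Scnn1g and Slc26a3 the start used lies inside the annotated span of the gene.
Aqp8: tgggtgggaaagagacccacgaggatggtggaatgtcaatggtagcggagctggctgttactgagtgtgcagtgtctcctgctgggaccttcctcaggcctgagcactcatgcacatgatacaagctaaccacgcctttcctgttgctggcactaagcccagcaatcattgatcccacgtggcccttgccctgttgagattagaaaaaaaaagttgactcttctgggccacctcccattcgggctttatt
Scnn1g: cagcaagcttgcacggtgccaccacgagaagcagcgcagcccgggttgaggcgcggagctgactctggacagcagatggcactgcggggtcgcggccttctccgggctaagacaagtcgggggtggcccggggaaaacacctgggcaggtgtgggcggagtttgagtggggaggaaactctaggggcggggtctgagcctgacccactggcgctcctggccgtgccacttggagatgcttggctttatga
Slc26a3: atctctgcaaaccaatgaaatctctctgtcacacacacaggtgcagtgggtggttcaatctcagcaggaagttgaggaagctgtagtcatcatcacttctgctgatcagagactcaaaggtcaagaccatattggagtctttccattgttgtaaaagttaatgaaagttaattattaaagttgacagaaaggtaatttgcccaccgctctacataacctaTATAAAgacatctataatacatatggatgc

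The Slc26a3 window holds TATAAA 30 bases before the start, and the other 2 windows hold no match to it. That motif was added after the sequences had been viewed. Over the 7 transport genes with a promoter entry, CAATAAA (a core bound by posterior Hox and Cdx factors) and AGAACA (an element of the mineralocorticoid and glucocorticoid receptors) had 0 matches on either strand. CAAAGT, a core of Hnf4 sites, had 1 match, 108 bases before the start of Scnn1b. Among 32851 promoters of the same length, CAATAAA was present in 4.20%, AGAACA in 16.1%, CAAAGT in 12.6% and TATAAA in 12.4%. Car1, Scnn1a and Hsd11b2 are named only.

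Levels between genes were compared as TPM, the deposited measure that divides by gene length. The order of the median TPM over the 9 libraries was Car4 (1432), Car1 (1365), Aqp8 (615), Slc26a3 (289), Hsd11b2 (189), Kcnn4 (52.8), Scnn1a (36.0), Slc9a3 (18.8), Scnn1b (7.42) and Scnn1g (1.33). Car4 exceeded Car1 in only 5 of 9 libraries and Kcnn4 exceeded Scnn1a in 4 of 9, so these neighbours were not separated. Slc26a3 exceeded Hsd11b2 in 6 of 9 and Slc9a3 exceeded Scnn1b in 7 of 9. Car1 exceeded Aqp8, and Scnn1b exceeded Scnn1g, in all 9. Together the 10 genes took between 0.161% of all TPM in CT 2 and 0.612% in IM-HYA 3. The low share in CT 2 sits beside its pancreatic reads.

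**Figure D1:**
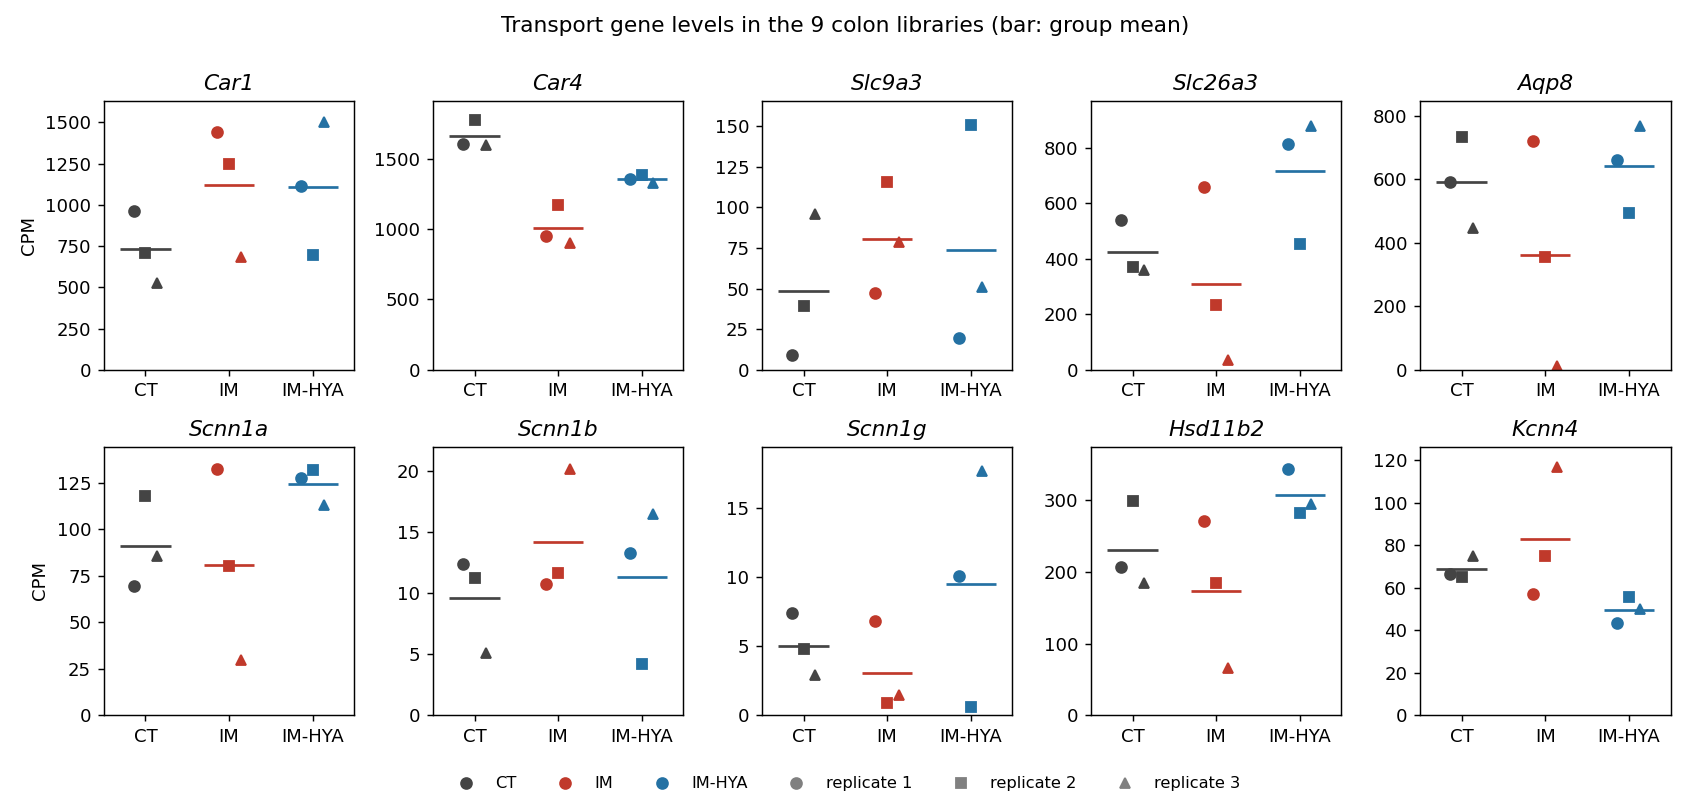
Level of each transport gene (CPM, vertical axis from 0) in the 9 libraries by group (CT, IM, IM-HYA), with a marker shape for each replicate number and a bar at the group mean. Car4 runs from 898 to 1172 CPM in IM and from 1595 to 1774 in CT with no overlap, while Aqp8 in IM spreads from 11.9 to 720.4 CPM.

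Car4 (gene identifier 12351, chr11:84957754-84966054, plus strand) encodes a carbonic anhydrase anchored to the outer face of the apical membrane. It stood at 1604, 1774 and 1595 CPM in CT, at 948, 1172 and 898 in IM, and at 1355, 1385 and 1324 in IM-HYA. In CPM every CT library was above every IM-HYA library, and every IM-HYA library was above every IM library. The separation from CT depended on the scaling. In TPM, Car4 was at 1753, 714 and 1432 in CT, 1359, 1168 and 1033 in IM and 1810, 1698 and 1691 in IM-HYA. There CT 1 and CT 3 were above every IM library. CT 2, with 33.7% of its counts on pancreatic marker genes, was below all others. The means were 1658 ± 101 CPM in CT, 1006 ± 146 in IM and 1355 ± 30.9 in IM-HYA (SD, n = 3 each). Its log2 fold change was −0.72 (SE 0.21) for IM against CT, 0.43 (SE 0.21) for IM-HYA against IM and −0.29 (SE 0.21) for IM-HYA against CT. None of these passed the edgeR quasi-likelihood test after adjustment by Benjamini and Hochberg (adjusted p = 0.621, 0.604 and 0.855). Under DESeq2 the difference between IM and CT passed, with an adjusted p of 0.0178. The adjusted p of that difference ran from 0.0178 to 0.995 over 25 alternatives, all with Car4 lower in IM. On the log2(FPKM + 1) scale the IM-HYA to CT change was 0.39 instead of −0.29, where the median of all genes stood at 0.52.

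Car1 (12346, chr3:14766214-14808365, minus strand) encodes a cytosolic carbonic anhydrase abundant in colonocytes. It was measured at 959.8, 708 and 525 CPM in CT, at 1439, 1248 and 681 in IM and at 1115, 698 and 1502 in IM-HYA. The highest control library lay inside the range of both other groups, so the groups overlapped. The log2 fold change was 0.62 (SE 0.37) for IM against CT and −0.02 (SE 0.37) for IM-HYA against IM, with edgeR adjusted p of 0.657 and 0.983. The ratio of Car4 to Car1 TPM was 1.28 to 2.33 in CT, 0.531 to 1.21 in IM and 0.702 to 1.56 in IM-HYA. The lowest CT ratio was thus above the highest IM ratio and inside the IM-HYA range.

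Slc9a3 (105243, chr13:74086255-74169442, plus strand) encodes the apical sodium-proton exchanger NHE3. Its levels were 9.12, 39.4 and 96.1 CPM in CT, 47.1, 115 and 78.3 in IM and 19.5, 150.3 and 50.6 in IM-HYA. Each group spanned a wide range, and all 3 overlapped. CT 1 was the lowest library and IM-HYA 2 the highest, 16.5-fold apart. The log2 fold change was 0.74 (SE 0.83) for IM against CT, −0.13 (SE 0.82) for IM-HYA against IM and 0.61 (SE 0.82) for IM-HYA against CT, with edgeR adjusted p of 0.799 or higher.

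Slc26a3 (13487, chr12:31433142-31473922, plus strand) encodes the apical chloride-bicarbonate exchanger, whose loss in humans causes congenital chloride diarrhoea. It read 541, 369 and 359.6 CPM in CT, 657, 235 and 36.9 in IM and 813, 452 and 880.3 in IM-HYA. The 3 IM libraries ran from far below to above the CT range, and IM 1 alone exceeded every control library. The log2 fold change was −0.45 (SE 0.73) for IM against CT and 1.21 (SE 0.74) for IM-HYA against IM, with edgeR adjusted p of 0.865 and 0.609. Without IM 3 the first of these was 0.08.

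Aqp8 (11833, chr7:123462294-123468003, plus strand) encodes an aquaporin of the absorptive colon surface. It was found at 591, 732 and 448 CPM in CT, at 720.4, 356 and 11.9 in IM and at 659.7, 493 and 768 in IM-HYA. The lowest library, IM 3, was 64.8-fold below the highest, IM-HYA 3, and the other 8 libraries all held 356 CPM or more. The log2 fold change was −0.70 (SE 0.91) for IM against CT and 0.82 (SE 0.91) for IM-HYA against IM, with edgeR adjusted p of 0.830 and 0.710. With CT 2 and IM 3 both left out the first was 0.06.

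The 3 ENaC subunits assemble into 1 channel, with Scnn1a encoding the alpha, Scnn1b the beta and Scnn1g the gamma subunit. Scnn1a (20276, chr6:125314271-125344943, plus strand) was at 69.7, 118 and 85.8 CPM in CT, 133, 80.5 and 29.7 in IM and 128, 132 and 113 in IM-HYA. Its 3 IM-HYA libraries sat close together (124 ± 9.92 CPM, SD, n = 3), inside the IM range, which had the highest and the lowest library. Scnn1b (20277, chr7:121865038-121918728, plus strand) was at 12.4, 11.2 and 5.13 CPM in CT, 10.7, 11.7 and 20.1 in IM and 13.3, 4.17 and 16.5 in IM-HYA. IM 3, which was the lowest library for Scnn1a, was the highest for Scnn1b. Scnn1g (20278, chr7:121734420-121768482, plus strand) was at 7.38, 4.78 and 2.91 CPM in CT, 6.80, 0.871 and 1.49 in IM and 10.1, 0.638 and 17.7 in IM-HYA. Its lowest and highest libraries, IM-HYA 2 with 32 reads and IM-HYA 3 with 731 reads, belonged to the same group and were 27.7-fold apart.

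None of the 3 subunits passed in a group comparison. For IM-HYA against IM the log2 fold changes were 0.62 (SE 0.43) for Scnn1a, −0.32 (SE 0.50) for Scnn1b and 1.63 (SE 1.01) for Scnn1g, with edgeR adjusted p of 0.622, 0.787 and 0.610. The subunits were not present in a fixed proportion. The ratio of Scnn1a to Scnn1b TPM ran from 1.14 in IM 3 to 26.2 in IM-HYA 2, and that of Scnn1a to Scnn1g TPM from 5.45 in IM-HYA 3 to 180 in IM-HYA 2. Scnn1b to Scnn1g was between 1.03 and 2.47 in 6 libraries, and 6.89, 14.6 and 15.4 in IM-HYA 2, IM 2 and IM 3. Those 3 libraries had the lowest Hox scores.

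Hsd11b2 (15484, chr8:105518746-105523988, plus strand) encodes the dehydrogenase that inactivates glucocorticoids in aldosterone target cells. It stood at 207, 299.8 and 185 CPM in CT, at 272, 185 and 65.4 in IM and at 343, 283 and 295 in IM-HYA. In CPM every IM-HYA library was above every IM library, and CT overlapped both. In TPM, IM 1 (311) lay above IM-HYA 2 (283) and IM-HYA 3 (304), so the separation depended on the scaling. The log2 fold change of IM-HYA against IM was 0.82 (SE 0.42, edgeR adjusted p = 0.604).

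Kcnn4 (16534, chr7:24369826-24385212, plus strand) encodes a calcium-activated potassium channel of the colonic epithelium. Its levels were 66.3, 65.1 and 75.0 CPM in CT, 56.8, 75.0 and 117 in IM and 43.6, 55.6 and 49.8 in IM-HYA. In CPM all 3 IM-HYA libraries lay below every CT and every IM library. Of all genes, 11.3% lay lower in this way against CT and 4.30% against IM. In TPM, Kcnn4 was at 54.8, 19.7 and 52.8 in CT and at 43.3, 51.0 and 47.0 in IM-HYA. Those groups overlapped, with CT 2 the lowest library, while the IM libraries (59.6, 59.0 and 89.0) stayed above IM-HYA. The log2 fold change of IM-HYA against IM was −0.74 (SE 0.26) and that of IM-HYA against CT was −0.47 (SE 0.25), with edgeR adjusted p of 0.604 and 0.854. Without IM 1 the first passed, with a log2 fold change of −0.94 and an adjusted p of 0.0488, in a fit where 871 of all genes passed. On the log2(FPKM + 1) scale the IM-HYA to CT change was 0.16, where the median of all genes stood at 0.52.

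Casting was compared by setting IM against CT. In the edgeR quasi-likelihood test, adjusted over 18414 genes, 0 of the 10 transport genes and 1 of all genes tested (0.00543%) passed at an adjusted p of 0.05. At an unadjusted p under 0.05 the counts were 1 transport gene, Car4, and 7.94% of all genes, and DESeq2 called 1 transport gene, again Car4, among 65 genes. The median log2 fold change of the 10 was −0.29, beside 0.04 over all genes tested. In CPM, Car4 was the single transport gene whose groups did not overlap downwards, against 4.59% of all genes, and 0 did so upwards, against 4.43% (9.02% in both directions). The 95% intervals of Aqp8, Scnn1g, Slc9a3 and Slc26a3 ran over more than 3 log2 units, so changes of several-fold were not detectable for them with 3 libraries a group.

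The HYA diet was compared within casting by setting IM-HYA against IM. Again 0 of the 10 passed edgeR's test, and 0% of all genes did. Kcnn4 had an unadjusted p of 0.0169, as the 1 of 10 under 0.05, beside 7.66% of all genes. DESeq2 called 0 of the 10 and 43 genes in all. In CPM, Car4 and Hsd11b2 were higher and Kcnn4 was lower in IM-HYA with no overlap, against 5.39% of all genes higher and 4.30% lower. The median log2 fold change of the 10 was 0.52, beside −0.01 over all genes. This comparison and the one before share the IM libraries, so their values for a gene are not independent.

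For IM-HYA against CT, 0 of the 10 transport genes passed edgeR's test, as did 1 of all genes (0.00543%). No transport gene had an unadjusted p under 0.05, beside 5.20% of all genes, and DESeq2 called 0. In CPM, Car4 and Kcnn4 were lower in IM-HYA with no overlap, against 11.3% of all genes lower and 10.8% higher. The median log2 fold change of the 10 was 0.43, beside 0.01 over all genes.

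**Figure D2:**
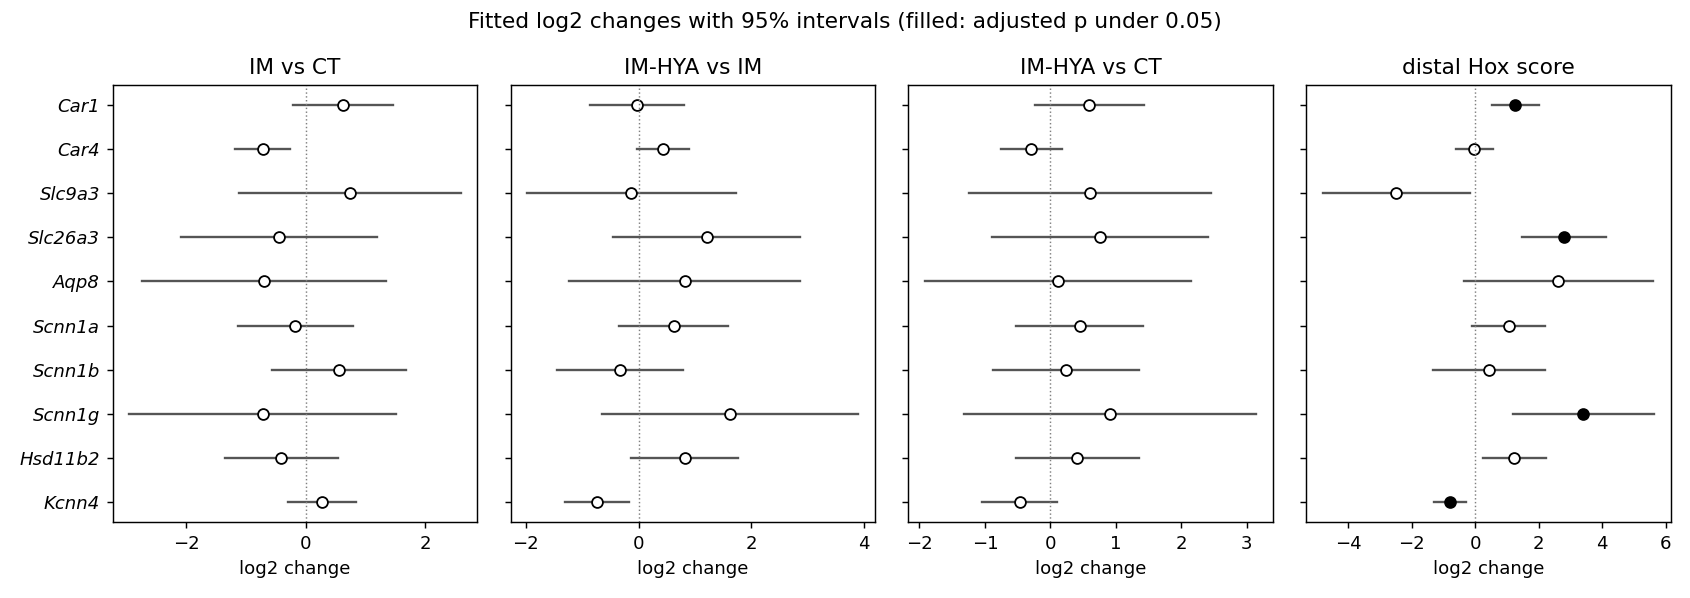
Fitted log2 change of each transport gene (horizontal axis, with its 95% interval) in the 3 group comparisons and from the lowest to the highest distal Hox score. Points are filled where the edgeR adjusted p is under 0.05, which holds for 0 of 10 genes in each group comparison and for 4 of 10 (Slc26a3, Scnn1g, Car1 and Kcnn4) with the score.

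The distal Hox score was then entered beside group in the edgeR fit, and its coefficient is the fitted log2 change from the lowest to the highest score. Slc26a3 rose by 2.80 (SE 0.59, adjusted p = 0.0176), Scnn1g by 3.41 (SE 0.97, adjusted p = 0.0459) and Car1 by 1.27 (SE 0.33, adjusted p = 0.0319), while Kcnn4 fell by 0.79 (SE 0.22, adjusted p = 0.0416). Thus 4 of 10 transport genes passed edgeR's test, beside 17.5% of all genes tested. At an unadjusted p under 0.05 the counts were 6 of 10 and 34.6% of all genes. The 3 that rose compare with 9.03% of all genes and the 1 that fell with 8.46%. The median coefficient was 1.15 over the 10 and −0.0042 over all genes. Scnn1g is a low gene, with 28 to 731 reads a library.

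A further 4 genes missed the threshold with estimates over 1 in size. They were Aqp8 (2.62, SE 1.26, edgeR adjusted p = 0.190), Hsd11b2 (1.23, SE 0.44, 0.0815), Scnn1a (1.06, SE 0.51, 0.173) and Slc9a3 (−2.49, SE 0.98, 0.123). With 1 library left out at a time, Aqp8 ran from 1.20 to 4.05 and Hsd11b2 from 0.55 to 1.55. Scnn1a then ran from 0.26 to 1.52 and Slc9a3 from −4.17 to −1.94. Over 27 alternatives Hsd11b2 passed in 8, Aqp8 in 3, Scnn1a in 2 and Slc9a3 in 2. With the epithelium score as a covariate, Aqp8 was 3.24 (edgeR adjusted p = 0.0013) and Hsd11b2 1.17 (edgeR adjusted p = 0.0182). For Scnn1b the estimate was 0.44 (SE 0.77, adjusted p = 0.727). Car4 had an estimate of −0.03 with a 95% interval from −0.62 to 0.55, in contrast to the intervals of Slc26a3 (1.47 to 4.12) and Scnn1g (1.19 to 5.63).

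**Figure D3:**
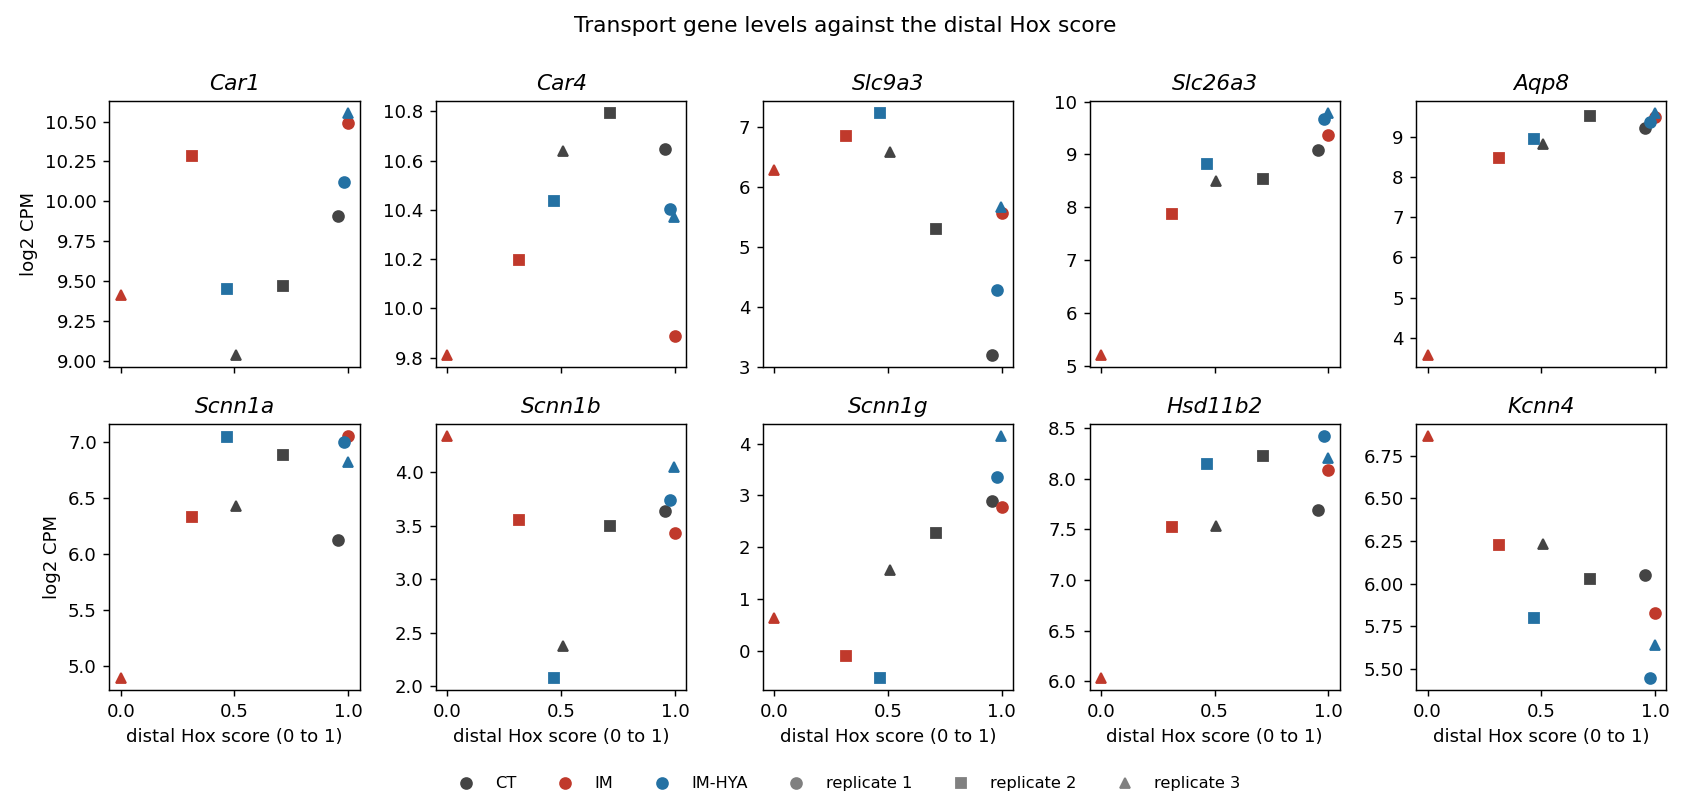
Level of each transport gene (log2 CPM, vertical axis) against the distal Hox score of the library (0 to 1, horizontal axis), coloured by group with a marker shape for each replicate number. The 4 libraries with scores above 0.9 hold 541 to 880.3 CPM of Slc26a3, above the 36.9 to 452 of the other 5, and Car4 holds 948 to 1604 CPM in those 4 and 898 to 1774 in the other 5. The share of all genes split like Slc26a3 was not computed.

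In levels, Slc26a3 lay between 541 and 880.3 CPM in the 4 libraries with scores above 0.9 (CT 1, IM 1, IM-HYA 1 and IM-HYA 3) and between 36.9 and 452 in the other 5. Scnn1g lay between 6.80 and 17.7 CPM in those 4 and between 0.638 and 4.78 in the other 5. For these 2 genes the ranges did not overlap, although each range mixes treatment groups. Both genes had already passed with the same score, and the share of all genes split in this way was not computed. Car1 ran from 959.8 to 1502 CPM in those 4 and from 525 to 1248 in the other 5. For Kcnn4 the ranges were 43.6 to 66.3 and 55.6 to 117 CPM. Slc9a3 had 9.12 to 50.6 CPM in those 4 libraries and 39.4 to 150.3 in the other 5, which overlapped in part.

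These calls were not stable. Without IM 1, the library with the highest score, 0 of 10 passed, and Slc26a3 then had an adjusted p of 0.420. Without CT 1, CT 3, IM-HYA 1 or IM-HYA 3 the count was 1 each time, and without IM 3 or IM-HYA 2 it was 2. Without both CT 2 and IM 3 it was 3 (Aqp8, Scnn1g and Slc26a3). The share of counts on the ribosomal pseudogene Rn18s-rs5 was lower at higher scores within each group, with little change in IM-HYA. It was 5.42%, 8.76% and 23.2% in CT, 2.88%, 11.3% and 16.4% in IM and 4.19%, 4.6% and 3.66% in IM-HYA. With that share as a covariate 0 of 10 passed, and 19 of all genes did. Slc26a3 passed in 22 of 27 alternatives, Scnn1g in 15, Car1 in 14 and Kcnn4 in 11. Over all 27, passing or not, the change of Slc26a3 was 1.56 to 3.57.

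With the score beside group, the group comparisons were read at an equal score. Again 0 of the 10 passed edgeR's test in each, beside 0.00543%, 0% and 0.00543% of all genes for IM against CT, IM-HYA against IM and IM-HYA against CT. Car1 in IM against CT had the smallest unadjusted p (0.0038), with a log2 fold change of 0.98 (SE 0.26) in place of 0.62 and an adjusted p of 0.506. Car4 kept a log2 fold change of −0.73 (SE 0.20), with an unadjusted p of 0.0053. These 2 were the transport genes under 0.05 in that comparison, beside 9.68% of all genes. For IM-HYA against CT, Kcnn4 had −0.40 (SE 0.17) with an unadjusted p of 0.0365, as 1 of 10 beside 9.38% of all genes. For IM-HYA against IM the count was 0, beside 1.72%.

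The wider transport machinery was read from 5 lists of 63 other genes, of which 57 were tested. In the group comparisons 0 of the 57 passed edgeR's test, with 8, 2 and 2 at an unadjusted p under 0.05 for IM against CT, IM-HYA against IM and IM-HYA against CT, beside 7.94%, 7.66% and 5.20% of all genes. With the distal Hox score 20 of 57 passed (35.1%, beside 17.5% of all genes), 14 higher and 6 lower. The counts for single lists below, of few genes each, stand beside 9.03% of all genes higher and 8.46% lower. This count was 0 without IM 1 or with the Rn18s-rs5 share as a covariate, and 5 without both IM 2 and IM 3.

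Of 15 tested genes of aldosterone signalling and ENaC regulation, 2 rose with the score and 1 fell, a share close to the 17.5% of all genes. Sgk1, an aldosterone-induced kinase that keeps ENaC at the surface, rose by 1.38 (SE 0.35, edgeR adjusted p = 0.0284). Fxyd4, an aldosterone-induced partner of the sodium pump, was at 93.0, 52.3 and 7.76 CPM in CT, 76.9, 0 and 0 in IM and 82.3, 0.379 and 112 in IM-HYA. It was high in the libraries with scores above 0.9 and had 0 reads in IM 2 and IM 3, and it passed with an edgeR adjusted p of 0.00997. Spint2, an inhibitor of the proteases that activate ENaC, fell by 1.09 (SE 0.32, adjusted p = 0.0461).

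Of 17 tested exchangers and carbonic anhydrases, 3 rose and 3 fell. Atp12a, the colonic proton-potassium pump, was at 313, 204 and 92.8 CPM in CT, 437, 4.42 and 0.651 in IM and 378, 51.0 and 419 in IM-HYA. It was high in the libraries with scores above 0.9 in every group and rose by 7.94 (SE 0.93, edgeR adjusted p = 0.00421). The sodium-bicarbonate cotransporter Slc4a4 rose by 2.59 (SE 0.50) and the cytosolic carbonic anhydrase Car2 by 1.98 (SE 0.40). The membrane-bound carbonic anhydrase Car12 fell by 3.48 (SE 0.57, edgeR adjusted p = 0.00802). The anion exchanger Slc4a2 fell by 1.64 (SE 0.23) and the NHE3 scaffold Slc9a3r2 by 1.09 (SE 0.29).

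In the list titled basolateral pumps and potassium channels, whose title need not hold for each gene, 5 of 10 genes passed and rose. They were the sodium pump subunit Atp1b1 (1.91, SE 0.32), the potassium channels Kcnk5 (1.98, SE 0.34) and Kcnq1 (0.89, SE 0.27), and the channel subunits Kcne3 (1.47, SE 0.31) and Kcnmb1 (1.5, SE 0.44), with edgeR adjusted p of 0.0493 or lower. Of 11 genes of fluid secretion 4 rose and 2 fell. Those that rose were the calcium-activated chloride channel Ano1 (2.84, SE 0.37), the bicarbonate-permeable channel Best2 (1.5, SE 0.30), the neuropeptide Vip (1.31, SE 0.39) and its receptor Vipr1 (1.27, SE 0.28). Those that fell were uroguanylin, Guca2b (−2.85, SE 0.48), and its receptor Gucy2c (−1.01, SE 0.24). Among the 4 other aquaporins tested 0 passed. For IM against CT their smallest p belonged to Aqp7 (log2 fold change 3.25, SE 1.07), Aqp1 (0.59, SE 0.23) and Aqp11 (0.59, SE 0.26), each with an edgeR adjusted p of 0.621. Aqp7, which is used by adipocytes, was at 21.3 CPM in IM 3 and between 0.219 and 1.64 elsewhere.

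**Figure D4:**
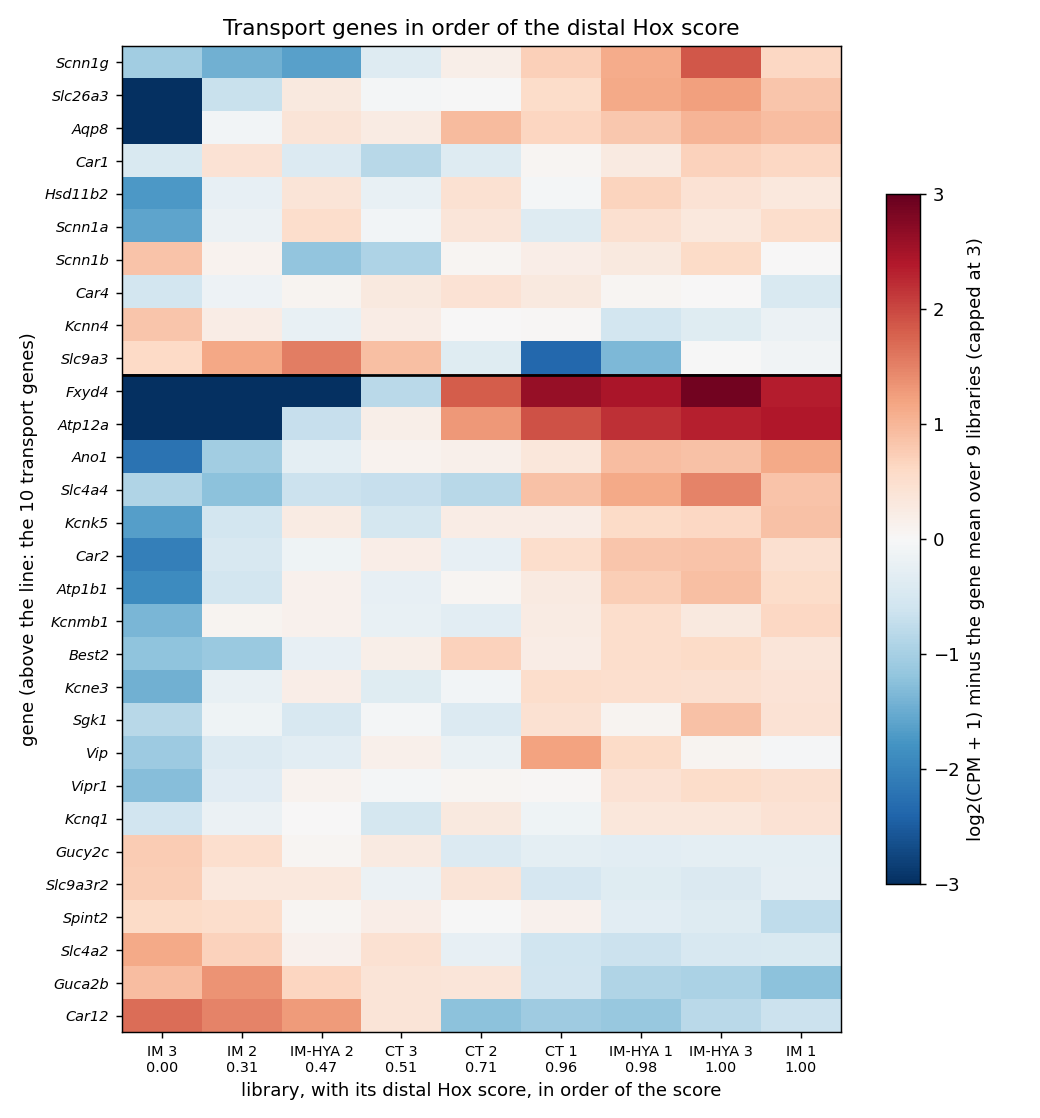
Levels of the 10 transport genes (above the line) and of the 20 other transport genes that passed with the score (below), as log2(CPM + 1) minus the mean of the gene, capped at 3. Columns are the 9 libraries in order of the distal Hox score from IM 3 (0) to IM 1 (1), and Atp12a and Fxyd4 run from their lowest values at the left to 437 and 76.9 CPM at the right.

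Other marker lists also differed along the score. The goblet cell markers had a mean log2 CPM of 11.0, 11.3, 11.1 and 11.4 in CT 2, CT 3, IM 2 and IM-HYA 2, of 9.92 to 9.99 in the 4 libraries with scores above 0.9 and of 9.74 in IM 3. The mature surface colonocyte markers (8 of 8 tested) had a mean log2 CPM of 6.15, 6.35 and 7.03 in CT, 6.66, 8.45 and 7.78 in IM and 6.53, 7.95 and 6.74 in IM-HYA. The 4 libraries with scores above 0.9 thus lay at 6.74 or below, and the 3 with the lowest scores at 7.78 or above. The genes of this list did not move together. Slc51a and Tmigd1 were at 118 and 72.6 CPM in IM 3, against 0 and 2.21 in IM 1, and Emp1 was also higher in IM 3. Muc3 and Lypd8 were at 665 and 2461 CPM in IM 3, against 4303 and 7904 in IM 1. Krt20, Ceacam1 and Ceacam20 were also lower in IM 3 than in IM 1. The anterior Hox genes summed to 299 CPM in IM 3 and 118 in IM 2, against 21.7 to 40.8 in the other libraries. The part of these lists, and of the T cell, adipocyte and erythrocyte markers of IM 3, in the levels of the transport genes was not tested.

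Over the 9 libraries the members also varied together, given here as a description of Pearson's r and Spearman's rho of log2 CPM with no test, since the points share their library and its position. Slc26a3 and Kcnn4 ran opposite to each other (r = −0.94, rho = −0.88, and r = −0.87 without IM 3). Scnn1a and Hsd11b2 ran together (r = 0.97, rho = 0.68, and r = 0.86 without IM 3). Scnn1g ran opposite to Slc9a3 (r = −0.72, rho = −0.78, and r = −0.71 without IM 3). Aqp8 and Slc26a3 had r = 0.95 and rho = 0.82, with r = 0.79 without IM 3. Car4 and Car1 had r = −0.36 and rho = −0.32, with r = −0.72 without IM 3.

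Among 9443 genes with a mean of at least 10 CPM, those most like each transport gene over the 9 libraries by Pearson's r were sought. For Slc26a3 they included Ola1 (0.996) and Nipsnap3b (0.996), with r of 0.981 and 0.978 without IM 3. For Aqp8 they were Hottip (0.994), a long noncoding RNA beside the distal end of the Hoxa cluster, Sval1 (0.990) and Npm3 (0.989). Without IM 3 the r of Hottip was 0.870 and that of Sval1 was 0.674. The top gene was Slc25a36 for Scnn1g (0.983, and 0.983 without IM 3), Lrrc66 for Scnn1a (0.988), S100g for Scnn1b (0.950), Tyms for Hsd11b2 (0.991) and Amer1 for Kcnn4 (0.991). It was Pafah1b3 for Car4 (0.956), Dpep1 for Slc9a3 (0.956) and Nol11 for Car1 (0.927). With 9 libraries and 9443 genes searched, these names only describe the libraries.

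Predicted genes overlap 3 of the transport genes in the annotation, Gm16399 in Car1, Gm41003 in Slc9a3 and Gm36848 at the end of Scnn1g. The sources used here do not say whether counting used the strand, so reads in the stretch shared by such a pair cannot be told apart here.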

How the data were processed

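Bulk RNA sequencing of colon was measured in 9 libraries, 3 per group, grouped by the labelled treatment. Per the submitters' processing notes, the tools were HISAT2 2.1.0, StringTie 2.1.3b, Trimmomatic and bcl2fastq 2.20.0, and the build was GRCm38 (mm10). Strandedness, annotation release and read filters are not given in the sources used here. Per gene and library the authors deposited a whole-number read count that was not normalized, an FPKM scaled by gene length and library total, and a TPM scaled to a common sum. The deposited read counts were used in the tests. The deposited FPKM entered alternatives only, and the deposited TPM was used to compare levels between genes. Of the per-sample columns, 0 were left unused.

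Genes passing filterByExpr by group in edgeR 4.0.16 (minimum count 10, minimum total 15) were scaled by TMM, and CPM is on that effective size. A robust quasi-likelihood fit of all 9 libraries with group as the term gave the 3 contrasts, and a fit with group and the distal Hox score gave the score coefficient, in R 4.3.3. Benjamini-Hochberg adjustment ran over every tested gene, and an adjusted p under 0.05 passed. The edgeR common dispersion gave a coefficient of variation of 0.469, and 6 residual degrees of freedom were left, or 5 with the score. Precision is limited by 3 libraries a group, at a median SE of 0.37 for a log2 fold change of IM against CT. Replicates differed beyond sampling noise (lowest chi-square per gene 39.8). The fits were also run on simulated counts, drawn independently for each library from the fitted dispersions. Those counts held no pancreatic or Rn18s-rs5 differences between libraries, so that run does not bear on how stable the calls are. Python 3.11.15 with matplotlib 3.10.9 drew the figures.

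The genes, the lists and the tests were chosen with earlier results of these data known. All 10 genes are named, as are list genes passing a test (at most 6 a list by smallest p, or the 3 with the smallest p where fewer than 3 passed) and genes from the 3 most like each member, not all of which are reported here. Alternatives were other scalings (RLE, upper quartile), filters, tools (DESeq2 1.42.0, limma 3.58.1), FPKM with a pseudocount of 1 or 0.1, covariates, position measures, a replicate block and left-out libraries. The Rn18s-rs5 covariate and leaving out IM 2 with IM 3 were added after the data were seen. Coordinates are 1-based, from RefSeq on GRCm38.p6, in which all 10 genes were found.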

Additional observations from a re-analysis of the deposited data

How the results depend on the processing

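Of 750 group fold changes of the 10 genes under alternatives, 702 kept their direction and side of the threshold, 46 changed sign and 2 passed it. The count of transport genes passing with the score (4) was 7 on filtered log2(FPKM + 1), and 0 on log2(FPKM + 1) without a filter, with the replicate block, with the Rn18s-rs5 share as a covariate and without both IM 2 and IM 3. It was 0 to 4 with 1 library left out. The count of other transport genes (20) was 2 on unfiltered log2(FPKM + 1), 0 with the block, 0 with the Rn18s-rs5 share, 5 without IM 2 and IM 3, and 0 to 22 with 1 library left out. DESeq2 called 1 transport gene for IM against CT, and leaving out 1 library gave 0 to 1 for IM-HYA against IM. Replicate numbers did not pair the libraries (correlation of deviations −0.273 to 0.364, over 0.1 in 5 of 9 pairs), and 4 of 9 libraries were closest to another with their own number. The block left 0 transport genes passing in each group comparison.

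Of all genes, 3220 passed with the score, against 1945 and 143 on FPKM with a pseudocount of 0.1 and unfiltered, 0 with the block, 19 with the Rn18s-rs5 share, 161 without IM 2 and IM 3, 5515 without the group term and 0 to 3731 with 1 library left out, the 0 being without IM 1. For IM against CT (1 gene) DESeq2 called 65 and other alternatives 0 to 2. For IM-HYA against IM (0) DESeq2 called 43, the absence of IM 1 gave 871 and other alternatives 0 to 1. For IM-HYA against CT (1) DESeq2 called 15 and other alternatives 0 to 7. The median log2 change of all genes was 0.32 and 0.41 on filtered FPKM with pseudocounts of 1 and 0.1 for IM against CT, 0.20 and 0.26 for IM-HYA against IM, 0.52 and 0.67 for IM-HYA against CT and 0.44 and 0.56 for the score.

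Signs that changed were as follows, all without passing the threshold and with causes not tested. For IM against CT without CT 2 and IM 3 they were Aqp8 0.059, Hsd11b2 0.22, Kcnn4 −0.10 and Scnn1a 0.46, with the score as a covariate Kcnn4 −0.015, with the epithelium score Scnn1a 0.135, and on FPKM Scnn1a 0.071 (0.055 with a pseudocount of 0.1). For IM-HYA against IM, Car1 was 0.0074 without a filter, 0.16 on FPKM and 0.020 with the block, Scnn1b was 0.034 under limma-voom and 0.024 without CT 2 and IM 3, and Slc9a3 was 0.61 with the Rn18s-rs5 share and 0.42 with the score. For IM-HYA against CT, with the Rn18s-rs5 share Aqp8 was −0.86, Hsd11b2 −0.10 and Slc26a3 −0.17, with the score Aqp8 was −0.11, and on FPKM Car4 was 0.39 and Kcnn4 0.16 (0.17 with a pseudocount of 0.1). For the score, Car4 was 0.024 without a filter, 0.34 on FPKM, 0.11 with the block and 0.33 without the group term, Scnn1b was −0.10 without the group term and Scnn1a −0.46 without IM 2 and IM 3.

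With each library left out in turn, the ranges that crossed 0 were, for IM against CT, Kcnn4 −0.061 to 0.47, Scnn1a −0.73 to 0.23 and Slc26a3 −1.64 to 0.077. For IM-HYA against IM they were Car1 −0.30 to 0.23, Scnn1b −0.69 to 0.078 and Slc9a3 −1.19 to 0.33. For IM-HYA against CT they were Aqp8 −0.042 to 0.32, Scnn1b −0.13 to 0.64 and Slc9a3 −0.45 to 1.60. For the score they were Car4 −0.24 to 0.14 and Scnn1b −0.31 to 2.40. Depth limits Scnn1g, which had 28 to 731 reads a library.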
